A study of Mus musculus with 12 samples.

Results

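The genes whose symbols start with Kcn encode the pore-forming and auxiliary subunits of potassium channels. All probes with such a symbol in the platform annotation were taken, 145 of 46133 probes, and each gene was represented by its brightest probe over the 12 arrays, which gave 86 of 17658 genes. Expression was measured on Illumina mouse BeadChips, which carry bead-bound probes read as fluorescence, in heart and skeletal muscle (extensor digitorum longus, a fast muscle of the lower leg) of male C57BL/6 mice aged 18 weeks. The heart and skeletal muscle groups each held 3 mice fed a high-iron diet with 2% carbonyl iron and 3 mice fed a control diet with 0.02% iron, over 6 weeks, and every specimen had its own array. No genetic change is given in the labels, and the part of the heart taken is not given in the sources used here. In bulk tissue of this kind, fewer cells of a type and less RNA per cell cannot be told apart.

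Potassium channels let potassium ions out of the cell and so set the resting potential and end each action potential. In heart muscle, voltage-gated channels carry the transient outward current and the delayed rectifier currents of repolarization, inward rectifiers hold the resting potential, and ATP-sensitive channels tie excitability to energy supply. In skeletal muscle, fast repolarization allows a fibre to fire again within a short time. Silent subunits make no channel by themselves but alter the channels of the Kcnb family when they join them, and KCNE and KChIP proteins alter gating and transport of the pores they bind.

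Of the 86 genes, 25 encode voltage-gated pore subunits, 10 silent subunits, 3 beta subunits and 9 KCNE or KChIP auxiliary subunits. Another 13 encode inward rectifiers and 14 tandem-pore (K2P) background channels. The class of calcium- or sodium-activated channels held 10, with their beta subunits and with Kcnu1, which was placed there by family only. The other 2 are Kcnrg, a regulator, and Kcnq1ot1, an antisense RNA at the Kcnq1 locus and no channel. Of the genes, 48 had 1 probe and 38 had several.

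Promoter windows are shown for the 3 genes with the largest deficit in heart (Kcnc4, Kcnc1 and Kcng4), for a gene of the cardiac transient outward current (Kcnd2) and for the member with the smallest p between the diets (Kcna5). The windows come from RefSeq on build GRCm38.p6, hold 300 bases from 250 before to 50 after the start of the gene, and were found for 66 of the 86 genes. No window was found for Kcnk3, Kcnq1 and Kcng2, the genes with the largest excess in heart. Kcnc4 lies at chr3:107458849-107459148 on the minus strand, Kcnc1 at chr7:46396218-46396517 on the plus strand and Kcng4 at chr8:119635631-119635930 on the minus strand. Kcnd2 lies at chr6:21215096-21215395 on the plus strand and Kcna5 at chr6:126535506-126535805 on the minus strand. Capitals mark matches, on either strand, to the muscle E-box CAGCTG, the MCAT element CATTCC, the GATA letters AGATAA and the TATA letters TATAAA.
Kcnc4: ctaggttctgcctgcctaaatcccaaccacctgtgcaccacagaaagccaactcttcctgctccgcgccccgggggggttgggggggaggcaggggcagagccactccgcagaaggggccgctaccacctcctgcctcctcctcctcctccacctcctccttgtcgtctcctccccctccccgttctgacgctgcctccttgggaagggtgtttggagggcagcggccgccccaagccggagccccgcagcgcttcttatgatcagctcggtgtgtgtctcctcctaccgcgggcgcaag
Kcnc1: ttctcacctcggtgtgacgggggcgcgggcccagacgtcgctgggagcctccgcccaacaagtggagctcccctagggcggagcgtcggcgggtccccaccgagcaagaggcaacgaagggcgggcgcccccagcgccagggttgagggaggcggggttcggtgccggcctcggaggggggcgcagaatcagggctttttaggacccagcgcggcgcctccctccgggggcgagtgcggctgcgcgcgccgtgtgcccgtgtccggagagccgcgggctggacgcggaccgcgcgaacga
Kcng4: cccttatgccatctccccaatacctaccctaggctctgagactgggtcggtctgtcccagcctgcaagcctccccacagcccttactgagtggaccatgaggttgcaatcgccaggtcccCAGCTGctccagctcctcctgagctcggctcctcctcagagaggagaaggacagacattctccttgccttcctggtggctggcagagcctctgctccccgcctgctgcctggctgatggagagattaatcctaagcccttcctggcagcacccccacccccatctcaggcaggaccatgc
Kcnd2: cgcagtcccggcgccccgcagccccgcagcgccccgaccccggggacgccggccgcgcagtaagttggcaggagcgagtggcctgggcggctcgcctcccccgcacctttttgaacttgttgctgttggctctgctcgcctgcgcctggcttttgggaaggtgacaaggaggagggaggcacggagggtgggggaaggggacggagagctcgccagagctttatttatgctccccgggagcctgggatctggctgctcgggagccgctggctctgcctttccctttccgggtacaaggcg
Kcna5: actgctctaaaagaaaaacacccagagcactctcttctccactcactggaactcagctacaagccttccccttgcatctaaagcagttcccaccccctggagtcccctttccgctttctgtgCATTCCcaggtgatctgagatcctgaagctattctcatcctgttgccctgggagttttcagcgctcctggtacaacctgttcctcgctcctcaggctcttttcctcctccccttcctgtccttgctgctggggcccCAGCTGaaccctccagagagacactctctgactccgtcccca
The Kcng4 window held 1 E-box, with its first base at position -130 from the start, and the Kcna5 window held an MCAT match at -128 and an E-box at 9. None of the 4 motifs was matched in the Kcnc4, Kcnc1 and Kcnd2 windows. Of all 32851 windows of the same length, 16.3% held the E-box, 14.7% the MCAT letters, 11.2% the GATA letters and 13.6% the TATA letters. Among the 66 channel genes with a window, 17 held the E-box, 13 the MCAT letters, 4 the GATA letters and 4 the TATA letters. The channel genes were counted by gene, over all windows of a gene, so these counts and the shares of windows are not like measures. The G and C content was 66.7% for Kcnc4, 74.7% for Kcnc1, 61.3% for Kcng4, 68.7% for Kcnd2 and 55% for Kcna5.

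Array medians before normalization went with the replicate number in all groups, with 281 to 337 on the 4 arrays numbered 1, 251 to 282 on those numbered 2 and 183 to 193 on those numbered 3. All 7 measured ventricle markers were higher and all 8 fast skeletal muscle markers lower in heart than in skeletal muscle, as the labels state. Among the hearts, iron replicate 1 and control replicate 2 stood apart, with median correlations of 0.930 and 0.936 to the other heart arrays, against 0.985 to 0.986 for the other 4. On iron replicate 1 the summed signal of 8 atrial markers was 64448, against 2965 and 3192 on the other iron hearts and 2963 to 7074 on the control hearts, with Myl7 at 20034 and Myl4 at 32988 there but Sln and Bmp10, also atrial, near the array median. Nppa, another atrial marker, had 271, 341 and 420 in iron hearts, against 464, 266 and 344 in control hearts, and was not raised on iron replicate 1. Most of what Myl7 and Myl4 left of the sum on that array came from Mybphl, Stard10 and Dkk3 together. On control replicate 2 the summed signal of 6 adipocyte markers was 4416, against 1472 to 1682 on all other hearts. That sum rested on Ucp1 with 2682 and Adipoq with 734.5 there, while Retn with 251 and Lep with 179 were at their lowest of the 6 hearts. The study's methods mention hybridization problems on a heart array of each diet, and the labels do not name these arrays.

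Most of the channel genes gave dim signals. After normalization the median signal of each array was 257, and a gene was called near the median where its mean log2 signal lay less than 1 above the array median in both tissues, which corresponds to a signal of 513. By this limit 77 of the 86 genes (89.5%) were near the median, against 13835 of all 17658 genes (78.3%), and 72 of the 86 with a limit of 0.5. The 9 brighter genes were Kcnk3, Kcnq1, Kcng2 and Kcnj8 in heart, Kcnc4, Kcnc1, Kcng4 and Kcnj12 in skeletal muscle, and Kcnj11 in both. No background level is given here for these arrays, so a log2 difference against a tissue at or below the array median compares measured signals and is not a ratio of expression.

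**Figure D1:**
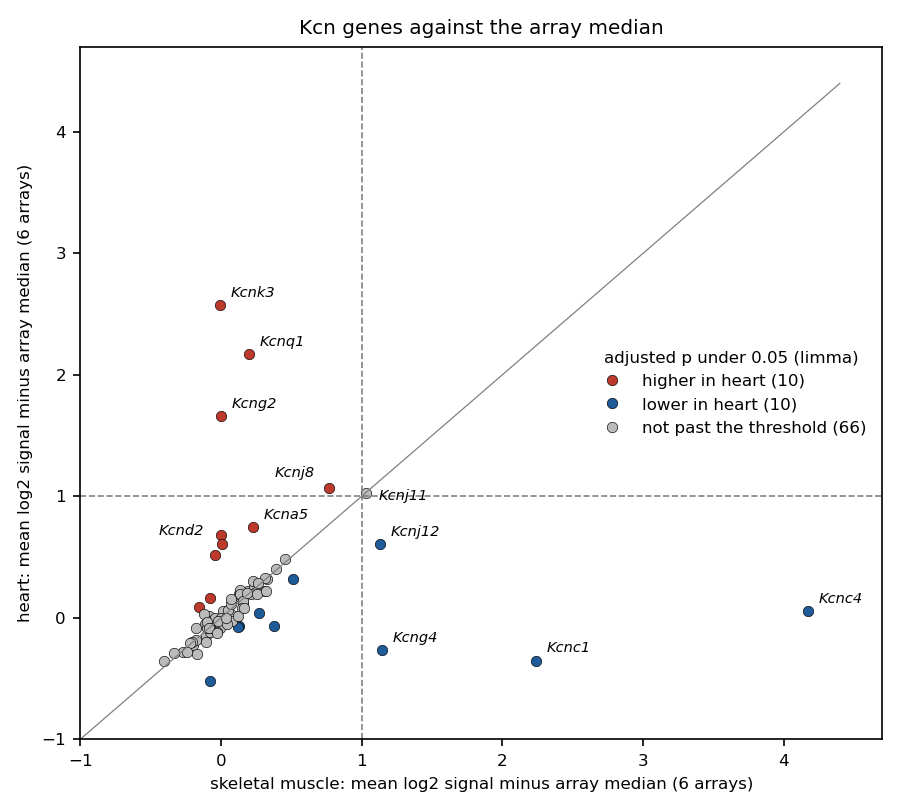
Mean log2 signal minus the array median of each of the 86 Kcn genes in heart (vertical axis, 6 arrays) and in skeletal muscle (horizontal axis, 6 arrays), with dashed lines at 1 and a solid line of equal values. Colours show the 10 genes higher and the 10 lower in heart at an adjusted p under 0.05, and 77 genes lie at the lower left, below both dashed lines.

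Between the tissues, potassium channel expression split by gene. Kcnk3, Kcnq1 and Kcng2 were higher in heart, with log2 differences in signal of 1.66 to 2.58, and Kcnc4, Kcnc1 and Kcng4 were lower there, with -4.12 to -1.41. At an adjusted p under 0.05 (limma, over all probes), 10 of 86 genes (11.6%) were higher and 10 (11.6%) lower in heart than in skeletal muscle. The shares of all genes were 13.6% higher and 8.86% lower, so the members' shares lay near the background with brightness left aside. Of the 9 members not near the array median, 4 were higher and 4 lower, against 39.5% and 27.5% of all such genes. The median log2 difference was -0.0044 over the 86 genes and 0.0062 over all genes. Of the 20 genes called, 12 were near the array median and 6 differed by more than 1 on the log2 scale. The heart and skeletal muscle arrays did not overlap for 16 of the 86 genes (18.6%), 8 higher and 8 lower in heart, against 17.2% of all genes.

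Among pore-forming subunits higher in heart, Kcnk3 encodes a background channel closed by acid. Its signal on the 6 heart arrays was 1331 at the lowest, 1489 at the median and 2023 at the highest, against 223, 262 and 270.2 on the 6 skeletal muscle arrays. Every heart array lay far above every skeletal muscle array, whose signals were at the array median (log2 difference 2.58, SE 0.082, adjusted p = 2.51e-13). Its highest heart signal, 2023, was on iron replicate 1, the array with the high Myl7 and Myl4, and the part of these in it was not tested. Without that array and control replicate 2 the log2 difference was 2.48. The second probe of Kcnk3 was also higher in heart, with a mean of 452 ± 78.4 in heart and 232 ± 7.58 in skeletal muscle (SD, n = 6 arrays each; log2 difference 0.94, adjusted p = 9.21e-07).

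Kcnq1 encodes the pore of the slow delayed rectifier, which in heart works with the product of Kcne1. Kcnq1 had signals of 996, 1080.0 and 1485 (lowest, median and highest) in heart, against 272, 297 and 316 in skeletal muscle. The 2 highest hearts were iron replicate 1 with 1485 and control replicate 2 with 1325, the arrays that stood apart, while the other 4 lay between 996 and 1108. The log2 difference was 1.97 (SE 0.087, adjusted p = 2.33e-11), and 1.83 without those 2 arrays. Of its 4 other probes, 1 was called in the same direction, with a log2 difference of 0.57, and 3 were not called. The mean of all 5 probes gave 0.52.

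Kcne1 had signals of 306, 364 and 530.3 in heart, against 242, 264 and 270.5 in skeletal muscle. Its 2 highest hearts were the same as for Kcnq1, control replicate 2 with 530.3 and iron replicate 1 with 490.0, and the tissues did not overlap. The log2 difference was 0.60 (SE 0.11, adjusted p = 0.000511), and 0.41 without those 2 arrays. Its other 2 probes were not called, with 0.16 (adjusted p = 0.0622) and 0.10 (adjusted p = 0.191), and the mean of all 3 gave 0.29.

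The transient outward current of mouse heart is carried in part by Kcnd2, whose pore is joined by the KChIP protein of Kcnip2. Kcnd2 had signals of 369.7, 408 and 465 in heart, against 229.6, 257 and 278 in skeletal muscle. All hearts were above all skeletal muscles, although the skeletal muscle signals were at the array median (log2 difference 0.68, SE 0.059, adjusted p = 1.52e-07). Kcnip2 had signals of 246, 272 and 313 in heart, against 207, 231 and 251 in skeletal muscle, all close to the array median and with overlap between the tissues (log2 difference 0.24, SE 0.061, adjusted p = 0.0104). The other probe of Kcnip2 was not called, with 0.07, and the mean of both gave 0.16 (adjusted p = 0.0356 in limma). The other pore subunits of this current showed little: Kcnd3 had a log2 difference of -0.03 (adjusted p = 0.869) and Kcna4 one of 0.10 (adjusted p = 0.469).

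Kcna5 encodes the pore of an ultrarapid delayed rectifier. It had signals of 317, 440.2 and 535 in heart, against 224, 312 and 359 in skeletal muscle, with overlap between the tissues. The log2 difference was 0.52 (SE 0.087, adjusted p = 0.000280) over both diets, 0.36 (adjusted p = 0.145) within the iron diet and 0.68 (adjusted p = 0.000122) within the control diet. With the iron diet arrays alone, Kcna5, Kcnj8, Kcnj5 and Kcnip2 no longer passed the threshold, so 6 genes were called higher in heart, and all 10 were called with the control diet arrays alone. Whether the tissue difference differs between the diets is the test of the diet by tissue term given further on.

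Among silent subunits, Kcng2 and Kcnv2 were higher in heart and Kcng4, Kcng1 and Kcnf1 lower. Kcng2 had signals of 705, 815 and 954 in heart, against 211, 263 and 284 in skeletal muscle. The 2 sets of arrays were far apart, with the skeletal muscle signals around the array median (log2 difference 1.66, SE 0.079, adjusted p = 6.24e-11). Kcnv2 had signals of 343, 367 and 397 in heart, against 205, 259 and 274 in skeletal muscle, without overlap (log2 difference 0.56, SE 0.068, adjusted p = 1.06e-05). Kcng4 had signals of 195, 212 and 238 in heart, against 439, 595 and 635 in skeletal muscle. Each heart array was below the array median and each skeletal muscle array above it (log2 difference -1.41, SE 0.065, adjusted p = 3.84e-11).

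Kcnc4 and Kcnc1 encode fast pores that open at strongly positive voltages. Kcnc4 had signals of 245, 271 and 288 in heart, against 4280.1, 4688 and 4997 in skeletal muscle. Kcnc4 was thus at the array median in heart and bright in skeletal muscle on every array (log2 difference -4.12, SE 0.056, adjusted p = 2.42e-18). Kcnc1 had signals of 187, 195 and 233 in heart, against 1049.6, 1158 and 1474 in skeletal muscle. None of the hearts rose above the array median for Kcnc1 (log2 difference -2.59, SE 0.072, adjusted p = 4.09e-14).

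The second probes of these genes gave other values. The second Kcnc4 probe had means of 279 ± 17.4 in heart and 351 ± 34.3 in skeletal muscle (SD, n = 6 arrays each; log2 difference -0.32, adjusted p = 0.00208), the same direction with a much smaller difference. The second probe of Kcnc1 had a log2 difference of 0.02 (adjusted p = 0.933) and that of Kcng4 one of 0.04 (adjusted p = 0.819), so neither was called. Over the mean of all probes of a gene the log2 differences were -2.22 for Kcnc4, -1.29 for Kcnc1 and -0.69 for Kcng4, each still past the threshold. Of the 12 called genes with several probes, 2 had all probes called the same way, 10 had some not called, and none had a probe called the other way.

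**Figure D2:**
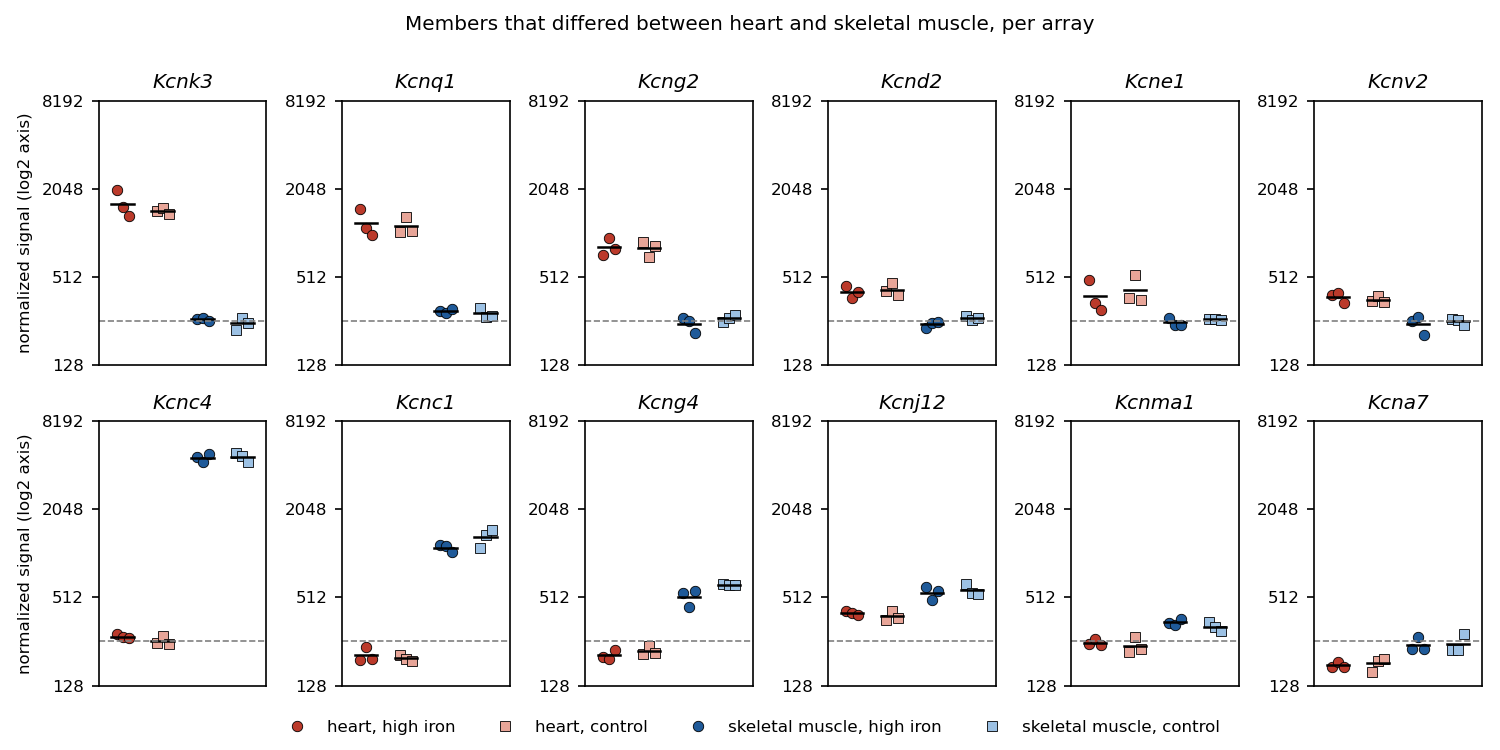
Normalized signal (log2 axis) of 12 Kcn genes on each array, with high-iron hearts, control hearts, high-iron skeletal muscles and control skeletal muscles from left to right, bars at the means of 3 arrays and a dashed line at the array median. The 6 genes in the upper row were higher in heart, Kcnk3 with 1331 to 2023, and the 6 in the lower row lower, Kcnc4 with 245 to 288 in heart against 4280.1 to 4997 in skeletal muscle.

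Inward rectifiers differed less. Kcnj8, the pore of the ATP-sensitive channel of vascular smooth muscle and pericytes, had signals of 515, 539.9 and 564 in heart, against 383, 437 and 494 in skeletal muscle. These did not overlap (log2 difference 0.30, SE 0.048, adjusted p = 0.000175). Kcnj11, the pore of the ATP-sensitive channel of cardiac and skeletal muscle cells, had signals of 467, 527 and 574 in heart, against 487, 514 and 576 in skeletal muscle. The ranges for Kcnj11 were nearly the same, and the log2 difference was -0.01 (SE 0.055, adjusted p = 0.984).

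Kcnj12, a strong inward rectifier, had signals of 359.9, 392 and 416 in heart, against 489.6, 557 and 630.3 in skeletal muscle, without overlap (log2 difference -0.52, SE 0.062, adjusted p = 7.37e-06). Kcnj2, which encodes the other strong inward rectifier of muscle, had signals of 232, 257 and 276 in heart, against 223, 258 and 286 in skeletal muscle, all around the array median (log2 difference 0.00, SE 0.064, adjusted p = 0.996). Kcnj3 and Kcnj5 form the acetylcholine-gated channel of the atria and pacemaker tissue. Kcnj5 had signals of 278, 287 and 299 in heart, against 228, 242 and 262 in skeletal muscle, close to the array median but without overlap (log2 difference 0.24, SE 0.049, adjusted p = 0.00189). The other probe of Kcnj5 was not called, with 0.07, and the mean of both gave 0.15 (adjusted p = 0.0119 in limma). Kcnj3 had a log2 difference of 0.15 (SE 0.059, adjusted p = 0.131), and its other probe was called higher in heart with 0.28 (adjusted p = 0.00865).

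Kcnma1, the pore of the large-conductance calcium-activated channel, had signals of 218, 242 and 274 in heart, against 300.5, 336 and 366 in skeletal muscle, without overlap (log2 difference -0.45, SE 0.063, adjusted p = 4.79e-05). Its second called probe had the same direction, with -0.20. Its smooth muscle partner Kcnmb1 had a log2 difference of 0.08 (adjusted p = 0.532), and Kcnn3, a small-conductance channel, had -0.11 (adjusted p = 0.203). Kcna7, a voltage-gated pore described in skeletal and heart muscle, had signals of 159, 179 and 196 in heart, against 223, 226 and 289 in skeletal muscle, most of them below the array median (log2 difference -0.44, SE 0.077, adjusted p = 0.000415).

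Kcnh2, the pore of the rapid delayed rectifier, had signals of 241, 247 and 266 in heart, against 250.1, 254 and 271 in skeletal muscle for its brightest probe, and its log2 difference was -0.04 (SE 0.046, adjusted p = 0.796). Its other probe was called higher in heart, with a mean of 249 ± 21.1 in heart and 182 ± 13.1 in skeletal muscle (SD, n = 6 arrays each; log2 difference 0.45, adjusted p = 5.69e-05). The mean of both probes was 0.21 higher in heart (adjusted p = 0.00436), so the call for Kcnh2 depended on the probe, and neither probe was called lower. Kcnn2, a small-conductance calcium-activated channel, was the third gene not called by its brightest probe (log2 difference 0.00) but called by another (0.29, adjusted p = 0.000842). In all, 7 of the 59 further probes were called, beside 5907 of all 46133 probes on the arrays. Of the 7, 4 were for genes also called by the brightest probe. Kcnab1, a beta subunit, had a log2 difference of 0.06 (adjusted p = 0.620).

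The weakest calls, named after their values were seen apart from Kcng1, were all lower in heart. These were Kcnf1 (-0.23, adjusted p = 0.0386), Kcng1 (-0.20, adjusted p = 0.0241), Kcnn1 (-0.19, adjusted p = 0.0325) and Kcnk2 (-0.19, adjusted p = 0.0319), and each was near the array median in both tissues. Over 22 alternatives Kcnn1 was lost in 14, Kcnk2 in 13, Kcnf1 in 11 and Kcng1 in 6. Without skeletal muscle control replicate 3 all 4 were lost and 6 genes remained lower, and with the mouse as a block Kcnn1 was lost. Leaving out 1 of the 12 arrays in turn kept all 10 higher genes and 6 to 9 of the 10 lower genes. The 55 members not named by rule, which include these except Kcng1, were near the median, with log2 differences between tissues of -0.23 to 0.09, and 3 were called. Kcnq1ot1, at 202 to 218 in heart against 219 to 245 in skeletal muscle, did not overlap but was not called (log2 difference -0.13, adjusted p = 0.103).

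**Figure D3:**
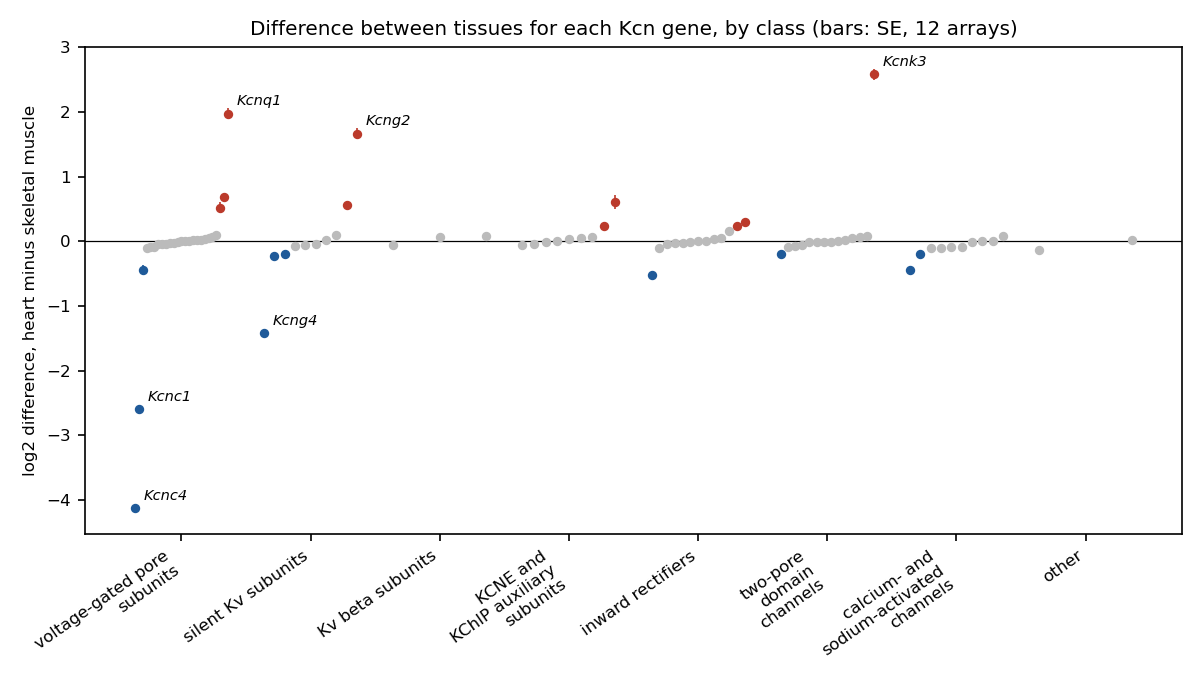
Log2 difference between heart and skeletal muscle (heart minus skeletal muscle, all 12 arrays) of each of the 86 Kcn genes by class, ordered by value within a class, with bars of 1 SE. Red points were called higher and blue points lower in heart, grey points were not called, and the 6 genes named in the plot exceed 1 in either direction.

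By class, the voltage-gated pores held 3 genes higher and 3 lower of 25, the silent subunits 2 and 3 of 10, the auxiliary subunits 2 and 0 of 9, the inward rectifiers 2 and 1 of 13, the tandem-pore channels 1 and 1 of 14 and the calcium- or sodium-activated channels 0 and 2 of 10. No beta subunit was called among 3. Over all genes, 13.6% were higher and 8.86% lower in heart. The classes were small and were not tested against these shares. The median log2 difference of a class ran from -0.09 in the calcium- or sodium-activated channels to 0.06 in the beta subunits.

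Other genes of potassium handling, such as pumps, transporters, channel partners and regulators, were taken from a list of 39, of which 33 were measured. In heart 10 of the 33 were higher and 8 lower than in skeletal muscle, beside 13.6% and 8.86% of all genes. The list was brighter than the background, with 17 of the 33 near the array median, against 78.3% of all genes. Among all genes not near the median, 39.5% were higher and 27.5% lower in heart. The largest differences upwards were those of Irx5 (1.51), a homeobox regulator that shapes the gradient of the transient outward current across the mouse ventricle wall, Irx3 (1.13), a homeobox regulator of cardiac conduction, Hcn2 (1.08), a pacemaker channel, Slc12a7 (1.01), a potassium-chloride cotransporter, Actn2 (0.63) and Abcc8 (0.58), a sulphonylurea receptor that joins Kcnj11. The largest downwards were those of Atp1b2 (-1.65), a sodium pump beta subunit, Lrrc38 (-1.52), a partner of the Kcnma1 channel, Sgk1 (-1.33), Tmem38a (-1.32), which forms a potassium channel of the sarcoplasmic reticulum, Slc12a2 (-1.15) and Fxyd6 (-0.66).

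The iron diet was compared with the control diet in each tissue. In the heart, no Kcn gene passed an adjusted p of 0.05 (limma; smallest adjusted p = 0.867), and neither did any other gene, the share of all genes called being 0%. At an unadjusted p under 0.05 there were 4 of the 86 genes (4.65%), 1 higher and 3 lower on the iron diet, against 2.93% of all genes. The 3 iron and 3 control hearts did not overlap for 1 gene higher and 7 lower (9.3%), against 7.47% of all genes. The 1.4-fold rule that the methods name, on the ratio of mean signals, took 1 gene, Kcna5, against 0.266% of all genes. The median log2 difference was -0.0048 over the 86 genes and -0.00026 over all genes.

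Kcna5 had signals of 317, 386 and 388 in iron hearts, against 493, 535 and 512 in control hearts. All 3 iron hearts were below all 3 control hearts. The log2 difference was -0.50 (SE 0.092, unadjusted p = 0.000278, adjusted p = 0.867 in limma), a fold change of -1.41. The fold change was -1.33 without iron replicate 1 and -1.38 without control replicate 2, so no gene then reached 1.4-fold. Without iron replicate 1, the lowest array, the log2 difference was -0.41, and without that array and control replicate 2 it was -0.38 (adjusted p = 0.220). Over all alternatives the adjusted p ran from 0.220 to 1.00. Kcna5 had 1 probe, and its value was known from earlier results of these arrays, so it is no independent evidence.

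Kcna5 is also known in arterial smooth muscle. Of the smooth muscle list all 6 genes were measured, 4 of them near the array median, and its summed signal was 5154 to 5519 in iron hearts, against 6312 to 7635 in control hearts. The sum was carried by Acta2, a smooth muscle actin, which had 3955, 3779 and 4014 in iron hearts and 4944, 5770.0 and 5390 in control hearts, also without overlap (log2 difference -0.45, adjusted p = 0.867). Over the 6 genes the median log2 difference between the diets was -0.06, and 1 of the 6 had an unadjusted p under 0.05 (limma). The part of these genes in the Kcna5 value was not tested.

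The other members of small unadjusted p in the heart were near the array median. Kcne3, an auxiliary subunit, had 205, 218 and 227 in iron hearts, against 247, 247 and 244 in control hearts (log2 difference -0.18, unadjusted p = 0.0273). Kcnk4, a mechanosensitive tandem-pore channel, had 267, 263 and 269 in iron hearts, against 309, 301 and 289.6 in control hearts (-0.17, unadjusted p = 0.0311). Kcnh1, a voltage-gated pore, had 350.1, 328 and 349 in iron hearts, against 305, 321 and 279 in control hearts (0.18, unadjusted p = 0.0415). For each of these 3 the diets did not overlap, and each had an adjusted p of 1.00 (limma). Over the mean of all probes the difference was -0.02 for Kcnk4 (4 probes, unadjusted p = 0.720) and 0.13 for Kcnh1 (2 probes, unadjusted p = 0.0881). Kcnab2, a beta subunit, was next, with a log2 difference of 0.15 (unadjusted p = 0.134) and overlap between the diets.

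Kcnk3, Kcnq1, Kcng2, Kcnd2, Kcnj11 and Kcnj8 had no adjusted p under the limit between the diets. Kcnk3 had 2023, 1535 and 1331 in iron hearts, against 1457, 1520.1 and 1378 in control hearts, with overlap (log2 difference 0.15, SE 0.13). The iron hearts held both the highest and the lowest value, and without iron replicate 1 and control replicate 2 the difference was 0.01. Kcnq1 had a log2 difference of 0.06 (SE 0.15), Kcng2 one of 0.03 (SE 0.12), Kcnd2 one of -0.06 (SE 0.095) and Kcnj11 one of 0.05 (SE 0.087). Kcnj8 had 523, 529 and 515 in iron hearts, against 551, 564 and 553 in control hearts, without overlap (log2 difference -0.09, SE 0.067, unadjusted p = 0.206).

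In skeletal muscle no Kcn gene passed either (smallest adjusted p = 0.538 in limma), against 0.204% of all genes. At an unadjusted p under 0.05 there were 4 (4.65%), 1 higher and 3 lower on the iron diet, against 5.99% of all genes. Iron and control arrays were without overlap for 2 genes higher and 3 lower (5.81%), against 11.2% of all genes. No Kcn gene differed by 1.4-fold, a size that 0.232% of all genes reached. The median log2 difference was -0.0001 over the 86 genes and -0.00022 over all genes.

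The silent subunit Kcng4 had 546, 439 and 571 in iron muscles, against 635, 620.3 and 627 in control muscles. The iron muscles were all below the control muscles, 1 of them clearly further than the other 2, and the log2 difference was -0.28 (SE 0.085, unadjusted p = 0.00309, adjusted p = 0.538). Kcnc1 had 1161, 1156 and 1049.6 in iron muscles, against 1113, 1370.1 and 1474 in control muscles (log2 difference -0.22, SE 0.089, unadjusted p = 0.0191). The diets overlapped for Kcnc1, since control replicate 1 lay below 2 of the iron muscles. Over the mean of both probes the difference was -0.11 for Kcng4 (unadjusted p = 0.120) and -0.13 for Kcnc1 (unadjusted p = 0.0823).

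Kcne4, an auxiliary subunit, had 274, 331 and 300.4 in iron muscles, against 343, 363 and 325 in control muscles, with overlap (-0.19, unadjusted p = 0.0250). Kcnj8 had 494, 443 and 455 in iron muscles, against 431, 420.1 and 383 in control muscles, and was the 1 gene of the 4 that was higher on the iron diet (0.17, unadjusted p = 0.0306). Kcnd2 was next (-0.15, unadjusted p = 0.0587), with signals around the array median. Kcnc4, although bright in skeletal muscle, had 4639, 4293 and 4906 in iron muscles, against 4997, 4737 and 4280.1 in control muscles, and the diets overlapped widely (log2 difference -0.02, SE 0.078).

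**Figure D4:**
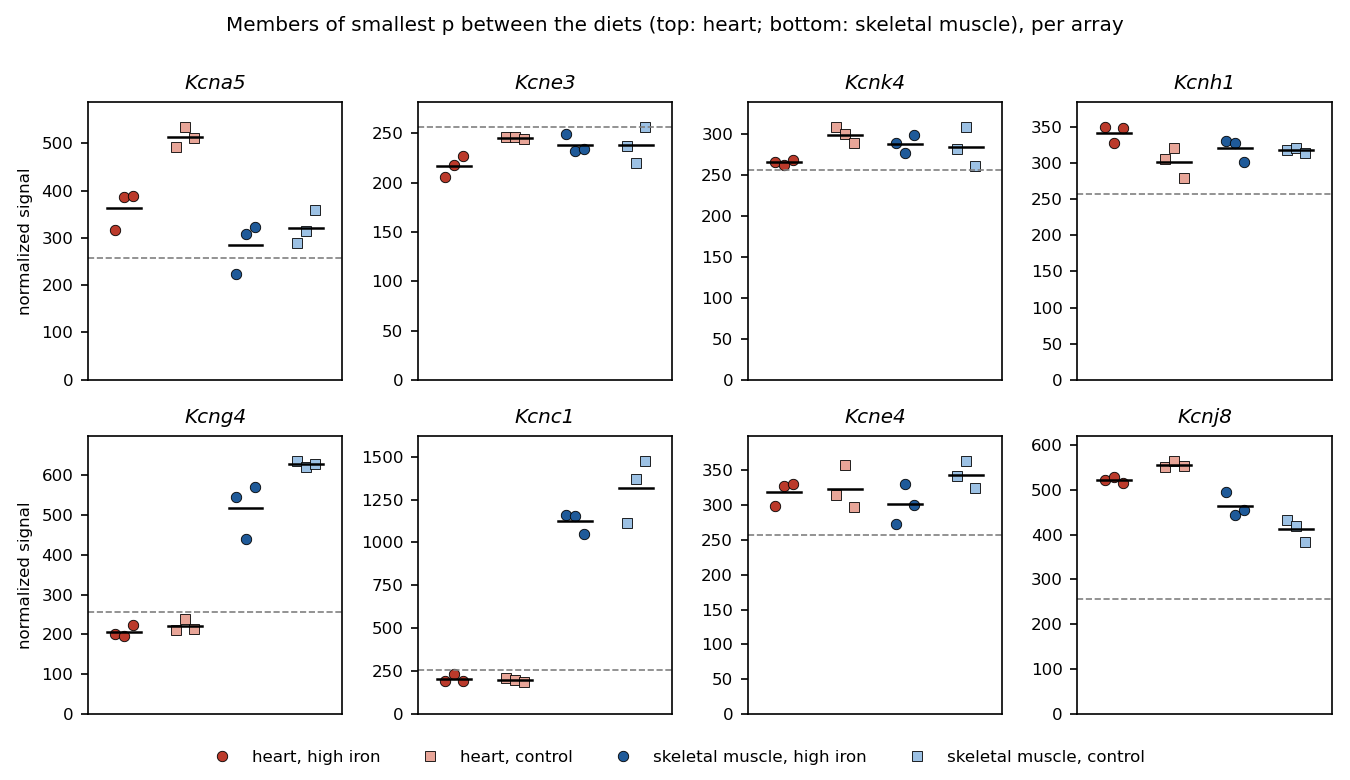
Normalized signal (linear axis from 0) on each array of the 4 Kcn genes with an unadjusted p under 0.05 between the diets in heart (upper row) and the 4 in skeletal muscle (lower row), with high-iron hearts, control hearts, high-iron skeletal muscles and control skeletal muscles from left to right, bars at the means of 3 arrays and a dashed line at the array median. The 3 iron hearts of Kcna5 sit at 317 to 388, below the control hearts at 493 to 535.

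The difference between the diets was set against tissue in a diet by tissue term. No Kcn gene passed an adjusted p of 0.05 (smallest adjusted p = 1.00 in limma), nor did any other gene (0%). At an unadjusted p under 0.05 there was 1 (1.16%), against 2.74% of all genes. That gene was Kcnj8, whose diet difference in heart minus that in skeletal muscle was -0.26 (SE 0.097, unadjusted p = 0.0145). The next were Kcnc1 (0.29, unadjusted p = 0.0636), Kcnk4 (-0.20, unadjusted p = 0.0673), Kcnab2 (0.22, unadjusted p = 0.0753) and Kcne3 (-0.19, unadjusted p = 0.0761). For Kcna5 the term was -0.32 (SE 0.17, unadjusted p = 0.0812), so its diet differences of -0.50 in heart and -0.18 in skeletal muscle were not shown to differ.

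None of the 33 measured genes of potassium handling passed the threshold between the diets in either tissue. At an unadjusted p under 0.05 (limma) there were 4 in heart and 3 in skeletal muscle, against 2.93% and 5.99% of all genes. The median log2 difference of the list was -0.04 in heart and -0.03 in skeletal muscle. Iron and control arrays did not overlap for 7.47% of all genes in heart and 11.2% in skeletal muscle. The list was not counted for this, and the genes given next are only examples from it. Irx3 had 641, 810.1 and 705 in iron hearts, against 489, 519.9 and 512 in control hearts (log2 difference 0.50, SE 0.092, adjusted p = 0.867), without overlap. Irx5 had 1049, 1099.7 and 844 in iron hearts, against 781, 789 and 649 in control hearts, also without overlap (0.43, SE 0.12, adjusted p = 1.00). In skeletal muscle Fxyd6, a sodium pump regulator, had 4349.6, 3749.9 and 3841 in iron muscles, against 2972, 2677 and 3436 in control muscles, without overlap (0.40, SE 0.087, adjusted p = 0.0983). Over the 55 members not named by rule, log2 differences between the diets ran from -0.13 to 0.14 in heart and from -0.12 to 0.13 in skeletal muscle.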

How the data were processed

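Each array gave 46133 probe signals. In the deposited sample files the authors gave each probe's intensity from BeadStudio before any normalization. A further deposited table holds the authors' own quantile-normalized intensity and served only as an alternative. The 12 arrays were quantile normalized together here and taken to log2 without an offset. Groups came from the sample labels. Tissues and the diet by tissue term were fitted over all 12 arrays, and diets within the 6 arrays of a tissue, with limma 3.58.1 in R 4.3.3 (lmFit and eBayes; two-sided). P was adjusted by Benjamini and Hochberg's method across every probe, with a limit of 0.05. Of the probes, 29542 had 1 symbol in the platform annotation, 11 several and 16580 none. A fold change divides mean normalized signals and carries a minus sign where expression was lower.

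Named members were those of known cardiac or muscle role, the up to 12 called in each direction with the largest tissue differences and no overlap, and the 5 of smallest p for each diet comparison and the diet by tissue term. Members and lists were chosen with earlier results of these data known. The 2 hearts left out together were picked by such results, as the labels name no faulty array; the methods report hybridization problems on 1 control and 1 iron heart array, with some probes left out there. Scripts were tested on simulated data. Levels were compared only within a probe. The number of arrays limits the precision, and the assignment of arrays to chips is not given in the sources used here. The tissues of 1 diet and number were taken as 1 mouse. Correlations of their deviations were 0.0262 to 0.0998.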

Additional observations from a re-analysis of the deposited data

How the results depend on the processing

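The alternatives covered normalization, the authors' table, an offset of 50, dim probes left out, the prior of limma, probes averaged and subsets of arrays. They gave 1363 values for the 80 results of the members named by rule, which leave out Kcnf1, Kcnk2 and Kcnn1. Of these values, 1350 kept their direction or lack of a call, 10 lost a call, 2 gained one and 1 gained one with a change of sign. Changes of sign numbered 59 with that value, and the others were not called under either setting. The value that gained a call with a change of sign was Kcnh2 between the tissues. It was -0.04 and not called for its brightest probe, and 0.21 with its probes averaged. Lower genes in heart numbered 6 with the control diet arrays alone and 6 with the iron diet arrays alone, and higher genes 6 with the iron diet arrays alone. The 1.4-fold rule took 1 gene in the heart, 0 to 1 with each heart array left out in turn and 0 without iron replicate 1 and control replicate 2 together, alternatives chosen after seeing the data. Leaving out 1 array in turn gave 10 to 11 genes higher and 6 to 9 lower in heart and 0 for either diet comparison and for the diet by tissue term. With the mouse or replicate number as a block, 10 were higher and 9 lower in heart, and no call between diets was gained (0 in either tissue and for the term). Deviations of equal numbers between diets correlated at -0.54 to 0.49 in heart and at 0.0217 to 0.0989 in skeletal muscle, which does not pair the mice, although the number went with array brightness before normalization. Without heart iron replicate 1 and control replicate 2, 10 were higher and 8 lower. How far a dim probe lay above background is not given here, since detection p-values were not used, which limits the differences of the 77 genes near the array median and the dim tissue of the 8 genes bright in 1 tissue.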
